A study of Homo sapiens and Mus musculus with 8 samples.

Results

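Decitabine was compared with vehicle in F1339, a mouse small cell lung cancer (SCLC) line, within each replicate number at 72 h. Of the 8 libraries of the series 4 belong to F1339, namely vehicle 1, decitabine 1, vehicle 2 and decitabine 2, and the other 4 come from the human SCLC line H146, sampled at 96 h. Both lines grew in RPMI medium with 10% fetal bovine serum, and the decitabine dose was 0.5 µM in each. Total RNA of the cell pellets was sequenced, and the study's stated question was whether depleting DNMT1 without cytotoxicity releases cell cycle exit by terminal maturation in SCLC. A gene was tested where at least 2 of the 4 F1339 libraries held 10 or more normalized counts, which kept 16680 of 16833 genes. The gene nearest the filter on the inside was Gm9750, with 15.1, 5.90, 9.76 and 10.6 normalized counts in vehicle 1, decitabine 1, vehicle 2 and decitabine 2, and the nearest outside was Lgals9, with 6.48, 9.83, 4.88 and 41.3. Each arm was run in duplicate, per the labels. They say neither whether the duplicates were separate cultures nor what a number stands for. The p-values therefore rest only on the spread between these libraries, which may be technical. Most of a gene's variance estimate came from the trend over all genes, at 9.755 prior against 1 residual degrees of freedom.

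Decitabine is a deoxycytidine analog that is built into replicating DNA, where it traps DNA methyltransferases. DNMT1, which copies methylation onto the new strand, is depleted as protein, and methylation is then diluted as cells divide. Germline genes, cancer-testis genes and the inactive X chromosome are classic places where promoter methylation holds genes silent. SCLC is a neuroendocrine tumour whose cells carry neuronal transcription factors such as NEUROD1 and INSM1, while the repressor REST keeps neuronal genes off in other cells.

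The 4 F1339 libraries held 61364041 to 67892360 reads, of which mitochondrially encoded genes took 1.22% to 1.82% and the 10 most abundant genes 4.74% to 6.05%. At this depth 1 read was worth 0.960 to 1.08 normalized counts. Neuroendocrine markers, which define SCLC, were present in every library. Chga, a secretory granule protein, stood at 79124 and 61868 normalized counts in vehicle 1 and 2 and at 79339.5 and 62939.6 in decitabine 1 and 2, and Syp, a synaptic vesicle protein, at 7989 and 6198 in vehicle and 8704 and 8462 in decitabine. The vehicle libraries stood further apart from each other than from their own decitabine libraries. Vehicle 2 differed from vehicle 1 by 2-fold or more in 2100 of the tested genes, against 1118 genes between decitabine 1 and vehicle 1 and 1596 between decitabine 2 and vehicle 2. The fit compared decitabine with vehicle within a number, with the number as a block.

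More genes were called higher than lower with decitabine, and the genes called higher had the larger median change, though not at like abundance. Over all tested genes, called or not, 5595 were higher and 5841 lower in both numbers. With the block, limma called 777 genes higher, 4.66% of those tested, and 548 genes lower, 3.29% of those tested, at an adjusted p under 0.05 and with the same sign in both numbers. At 1 residual and 9.755 prior degrees of freedom, a gene with opposite signs could not reach that adjusted p here. The sign rule therefore removed no gene, which is not a sign of agreement between the numbers. The median fitted log2 difference of the genes called higher was 1.21, and 458 of them had a fitted change of 2-fold or more. The median of the genes called lower was −0.58, and 68 reached 2-fold. Genes called higher were low in abundance, with a median mean of 214 normalized counts against 1093 over all genes tested. Genes called lower were abundant, with a median of 2335. At a vehicle mean of 1000 or more the sizes were alike. There the 157 genes called higher had median log2 differences of 0.46 in number 1 and 0.62 in number 2. The 444 called lower had −0.45 and −0.68. The 2 vehicle and 2 decitabine values did not overlap in 1024 of the 1325 called genes (77.3%), against 5980 of all tested genes (35.9%). In the remaining called genes the difference showed within each number and the arms overlapped.

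The number of calls rested on the block and on the variance model. Without the block limma called 0 genes, with 932 at an unadjusted p under 0.05, and with the block but without a variance trend it also called 0, with 2737. On the recovered reads with the block, edgeR called 877 genes higher and 576 lower, and DESeq2 440 higher and 431 lower. The share of calls that were higher was 58.6% in the fit as reported and 50.5% with DESeq2. With a stricter filter, at least 50 normalized counts in at least 2 libraries, it was 51.0%, with 646 higher and 620 lower. After rescaling the libraries to the same upper quartile it was 72.7%, with 338 higher and 127 lower. After rescaling to the same total it was 77.6%, with 1476 higher and 425 lower. Of the called genes, 298 higher and 127 lower were called in all of the blocked alternatives other than the stricter filter and the fit without a trend. The authors' deposited table marks 107 genes at an adjusted p under 0.05, 77 higher and 30 lower, and all 107 are among the genes called here.

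Genes that differed 2-fold in 1 number mostly differed the same way in the other. Among the 13685 genes with at least 50 normalized counts in at least 2 libraries, 361 were 2-fold or more higher in number 1. Of these, 328 were also higher in number 2 (90.9%, against 46.0% of all genes of that abundance). In number 2, 192 of the 361 were 2-fold higher (53.2%, against 3.33% of all). Of the 36 that were 2-fold lower in number 1, 33 were lower in number 2 (91.7%, against 54.0% of all). Of the 36, 20 were 2-fold lower there (55.6%, against 1.56% of all). Read the other way, 427 of the 456 genes 2-fold higher in number 2 were higher in number 1 (93.6%, against 45.1% of all). Of the 213 genes 2-fold lower in number 2, 178 were lower in number 1 (83.6%, against 54.9% of all). Of the 213, 20 were 2-fold lower there (9.39%, against 0.263% of all). The abundance limit used all 4 libraries, so the libraries read helped to choose the genes.

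**Figure D1:**
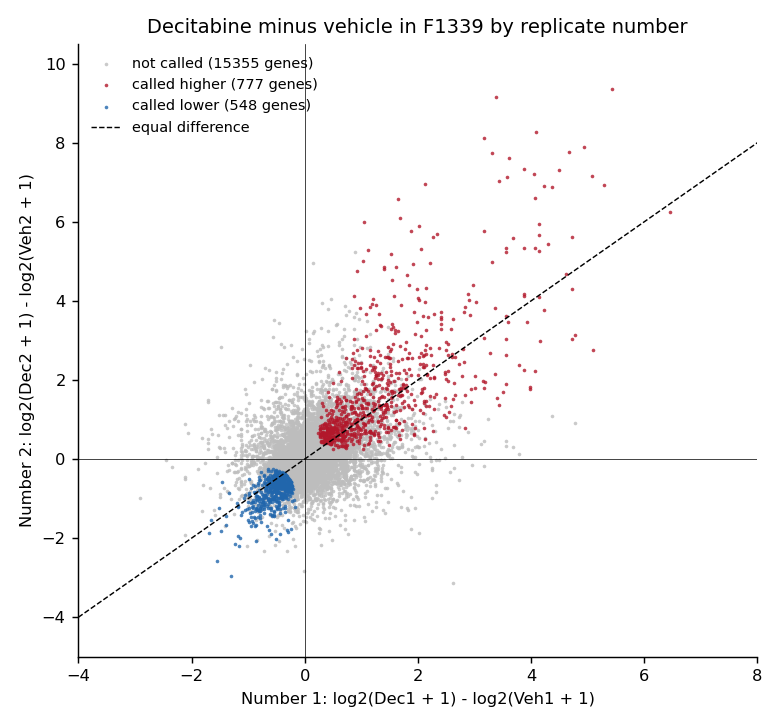
Log2 difference between decitabine and vehicle in replicate number 1 (horizontal axis) and number 2 (vertical axis) for the 16680 tested F1339 genes, 1 point per gene. The 777 genes called higher lie to the upper right, many of them above the dashed line of equal differences, and the 548 called lower lie close to the origin in the lower left.

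The response was larger in number 2. The SD of the log2 difference over all tested genes was 0.55 in number 1 and 0.73 in number 2, and the median size without regard to sign was 0.17 and 0.26. The difference was larger in number 2 for 10575 genes (63.4%). In number 1, 960 genes were 2-fold or more higher (5.76%) and 158 were 2-fold or more lower (0.947%). In number 2, 1265 genes were 2-fold or more higher (7.58%) and 331 were 2-fold or more lower (1.98%). Across genes, which are not independent replicates, the differences of number 1 and number 2 had a Pearson correlation of 0.60 and a Spearman correlation of 0.49, and the sign was the same for 68.6% of genes. The differences in number 1 and number 2 were more than 3 counting standard errors apart for 5602 genes (33.6%). A test of the difference between the numbers needs replicates within a number, and with 1 vehicle and 1 decitabine library in each there are none, so these are descriptions. In H146 the SDs were close, at 0.87 in number 1 and 0.88 in number 2.

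The larger size of number 2 held at each level of abundance. In genes with a mean of 5000 normalized counts or more, where counting error is small, the median size was 0.10 in number 1 and 0.17 in number 2. In genes with a mean of 500 to 5000 it was 0.13 and 0.21. In genes called lower the median log2 difference was −0.49 in number 1 and −0.71 in number 2, and the fall was larger in number 2 for 455 of 548 (83.0%). Genes called higher had medians of 1.12 and 1.28, with 520 of 777 larger in number 2 (66.9%, against 63.4% of all tested genes). The gap was widest in the 144 genes called higher from a vehicle mean under 10, at 2.51 in number 1 and 3.62 in number 2. Those called higher from a vehicle mean of 100 to 1000 had medians of 0.83 and 0.86, and 57.8% of them were larger in number 2.

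Genes under 10 normalized counts in both vehicle libraries also mostly reached higher levels in decitabine 2 than in decitabine 1. In 260 tested genes both vehicle libraries held under 10 normalized counts and both decitabine libraries 10 or more, while the reverse pattern was found in 30 genes. Of the 260, 117 were called higher. Some lay close to 10 in both arms, such as Mir7052, at 9.72 and 8.78 in vehicle and 11.8 and 12.5 in decitabine. The choice of the 260 fixes that decitabine is above vehicle, so only the comparison of the decitabine libraries is read here. Decitabine 2 was above decitabine 1 in 203 of the 260 (78.1%), against 50.6% of all tested genes, and the median ratio of decitabine 2 to decitabine 1 was 1.63, with a middle range of 1.06 to 2.94. The ratio was above 5 in 38 genes. Its 95% counting interval, which covers counting error only, lay above 1 in 111 genes and below 1 in 7. Of the 403 listed genes under 10 in both vehicle libraries, the 260 were tested, while 135 reached 10 in decitabine 2 alone and 8 in decitabine 1 alone and did not pass the filter.

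The 12 genes with the largest fitted rises among those with a mean of at least 50 were Mov10l1, Fkbp6, Xist, Tex19.1, Dazl, Tuba3b, Pnma5, Slc25a31, Rps4l, Pkd1l2, Tex13b and Acss3, several of them known from germ cells. Mov10l1, a helicase of the piRNA pathway, held 2.16 and 0.976 normalized counts in vehicle 1 and 2 and 136 and 1302 in decitabine 1 and 2. Its ratio of decitabine to vehicle was 472, with a 95% counting interval of 161 to 2291, and decitabine 2 stood 9.59 times as high as decitabine 1 (interval 8.05 to 11.5). Dazl, an RNA-binding protein that germ cells need, held 1.08 and 0 in vehicle and 34.4 and 308 in decitabine, a ratio of 337 (interval 60.2 to 13360). The RNA of Tex19.1, a germ cell and placental protein that restrains retrotransposons in mice, went from 2.16 and 1.95 to 79.6 and 638, a ratio of 177 (interval 68.7 to 650). All 3 were near 0 in both vehicle libraries, and each was at least 8 times as high in decitabine 2 as in decitabine 1.

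Fkbp6, a co-chaperone of meiosis and the piRNA pathway, was at 0 in both vehicle libraries and at 29.5 and 239 normalized counts in decitabine 1 and 2, at least 88.1-fold higher when set against 3 reads over the vehicle arm. Slc25a31, the testis ADP/ATP carrier, held 1.08 and 0 in vehicle and 24.6 and 197 in decitabine (ratio 218, interval 38.7 to 8645). Pnma5, of the PNMA family, held 2.16 and 0 in vehicle and 27.5 and 275 in decitabine (ratio 149, interval 41.0 to 1238). Xist, the noncoding RNA that coats and silences an X chromosome, held 5.40 and 0.976 in vehicle and 65.9 and 1128 in decitabine, a ratio of 196 (interval 89.9 to 535), and its decitabine libraries differed 17.1-fold. Strand use in counting is not given in the sources used here, so reads of Xist and of its antisense partner Tsix cannot be told apart. Rps4l, a ribosomal protein S4 relative, held 5.40 and 1.95 in vehicle and 75.7 and 418 in decitabine, and its reads may be shared with near-identical copies. Acss3 and Pkd1l2 were the other named genes of this kind, with 0 and 3.90 against 16.7 and 188, and 0 and 1.95 against 15.7 and 284.

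**Figure D2:**
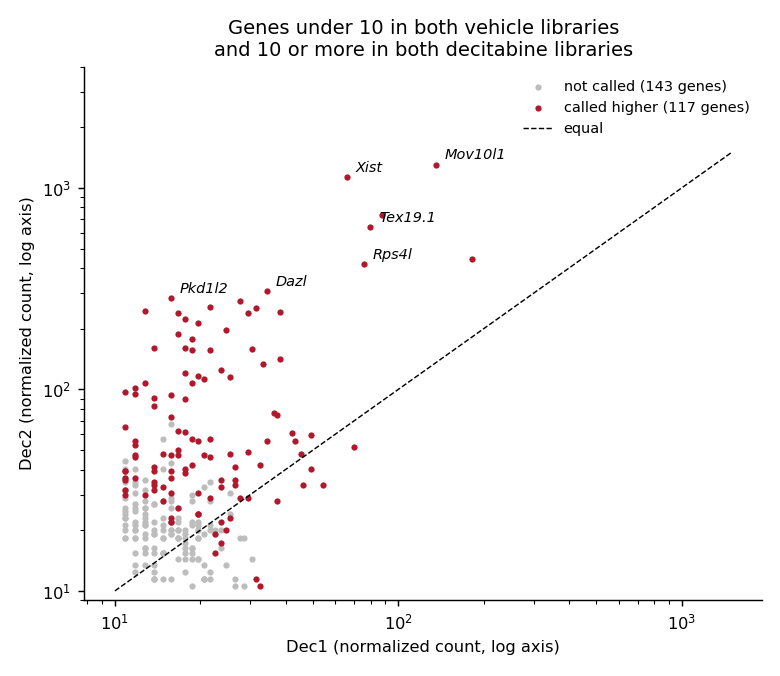
Normalized counts in decitabine 1 (horizontal, log axis) and decitabine 2 (vertical, log axis) of the 260 genes with under 10 in both vehicle libraries and 10 or more in both decitabine libraries, 1 point per gene. Decitabine 2 is the higher in 203 of them, and Mov10l1, Xist and Tex19.1 lie far above the dashed line of equal values.

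Lists of related genes are described by their counts of calls and medians, which stand beside 4.66% called higher, 3.29% called lower and a median of −0.0075 over all genes tested. Of all 16680 genes tested, 5595 were higher and 5841 lower in both numbers, and 3976 were at an unadjusted limma p under 0.05. In the 11 lists with genes called higher and 0 lower, 11 genes were lower at an unadjusted limma p under 0.05, and edgeR called 0 and DESeq2 1 of their genes lower. Members under 10 in both vehicle libraries, such as Dazl and Mov10l1, passed the filter only through decitabine, so they could only be higher. This raises the share called higher and the median of any list that holds them. Of the 21 tested genes of the germline and meiosis list, which has 40 members, 9 were called higher and 0 lower. The median fitted log2 difference of the 21 was 0.61 against −0.0075 over all genes tested. The testis alpha tubulins were the most abundant of them. Tuba3b held 216 and 99.5 normalized counts in vehicle 1 and 2 and 7329 and 14291 in decitabine 1 and 2. Its fitted log2 difference was 6.11 ± 0.34 (n = 2 pairs, limma adjusted p = 1.89e-05). Here and below ± gives limma's SE, in which each gene's variance is drawn toward the trend over all genes. It is therefore not the spread of that gene's 2 pairs alone. Tuba3a held 280 and 163 in vehicle and 1173 and 6571 in decitabine. The coding sequences of Tuba3a and Tuba3b are nearly identical, and the split of reads between them is uncertain. Piwil2, a piRNA-binding Argonaute, was chosen after its values were seen and held 0 and 3.90 in vehicle and 23.6 and 125 in decitabine.

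Of the 32 members of the cancer-testis and X-linked multicopy list 6 were tested. Of these, 5 were called higher and 0 lower, with a median of 3.31. The filter limit given above applies to Trap1a and Tex13b. Xlr3c, of a mouse X-linked gene family expressed in germ cells, held 2.16 and 17.6 normalized counts in vehicle and 58.0 and 251 in decitabine (fitted log2 difference 3.99 ± 0.40, limma adjusted p = 0.000663), and its reads may be shared with other Xlr3 copies. Trap1a, a mouse tumour rejection antigen, was at 0 in both vehicle libraries and at 16.7 and 49.9 in decitabine. Tex13b, a testis-expressed X-linked gene, held 1.08 and 0.976 in vehicle and 21.6 and 256 in decitabine, a ratio of 137 (interval 37.6 to 1136). In Xlr3c both decitabine libraries lay above both vehicle libraries, while in Trap1a and Tex13b the filter fixed this.

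The 12 genes with the largest fitted falls among those with a mean of at least 50 included Cdh20, Gpc6, Immp2l, Tenm3, Pard3b, Npas3, Kcnip4, Scd1, Cdh13, Csmd1 and Dcc. The human genes of the same symbols span 300 kb or more for 10 of the 12, all but Scd1 and Cdh20. Gpc6, a cell surface proteoglycan, held 1049 and 824 normalized counts in vehicle 1 and 2 and 358 and 138 in decitabine 1 and 2 (fitted log2 difference −2.06 ± 0.22, limma adjusted p = 0.000947). Pard3b, a cell polarity gene, held 1090 and 500.5 in vehicle and 390 and 142 in decitabine, and Npas3, a neuronal transcription factor, 464 and 159 in vehicle and 147 and 53.7 in decitabine. Cdh13, an adhesion protein anchored to the membrane by lipid, held 728 and 412 in vehicle and 402 and 97.9 in decitabine. Vehicle 2 lay close to decitabine 1 for Npas3 and Cdh13, while the fall was clear within each number. Robo2, an axon guidance receptor chosen after its values were seen, held 4592 and 3766 in vehicle and 2096 and 1407 in decitabine (−1.28 ± 0.11).

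Cdh20 and Tenm3 were low in vehicle 1. Cdh20, a cadherin, held 18.4 and 216 normalized counts in vehicle and 6.88 and 26.9 in decitabine, and Tenm3, a teneurin that guides neuronal wiring, 73.4 and 189 in vehicle and 32.4 and 40.3 in decitabine. Immp2l, a mitochondrial inner membrane peptidase subunit, held 209 and 122 in vehicle and 88.5 and 26.9 in decitabine. Kcnip4, a potassium channel partner, held 204 and 265 in vehicle and 91.4 and 66.2 in decitabine. Csmd1, a transmembrane protein that regulates complement, held 138 and 74.1 in vehicle and 52.1 and 26.9 in decitabine, and Dcc, the netrin receptor, 171 and 87.8 in vehicle and 59.0 and 36.5 in decitabine. Among these, the arms of Cdh20 overlapped and those of the other 5 did not.

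Gene length was then read for all genes, a description chosen after values were seen. No mouse annotation was used here, so the span of the human protein-coding gene of the same symbol (GENCODE release 29, GRCh38) stood in for that of the mouse gene. It was found for 12407 of 13565 tested genes with a usable symbol (91.5%). Of the 642 genes with a span of 300 kb or more, 214 were called lower (33.3%) and 14 higher. In the 4 shorter classes 1.68% to 5.14% were called lower. The long genes had a median log2 difference of −0.29 in number 1 and −0.39 in number 2. Of them, 66.8% were lower in both numbers, against 32.6% to 42.9% in the 4 shorter classes. The median span of the genes called lower was 236 kb, against 24.3 kb for those called higher and 35.4 kb for all genes with a span. The long genes were of lower abundance than the other classes, with a median mean of 876 normalized counts. After rescaling to the same upper quartile 75 of the long genes were called lower, and without the block or without a variance trend 0 were. In H146 the same class had 132 of 705 genes called lower (18.7%) against 11.2% to 13.0% in its shorter classes, and 10.8% called higher, and its median was −0.18 in number 1 and 0.017 in number 2.

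**Figure D3:**
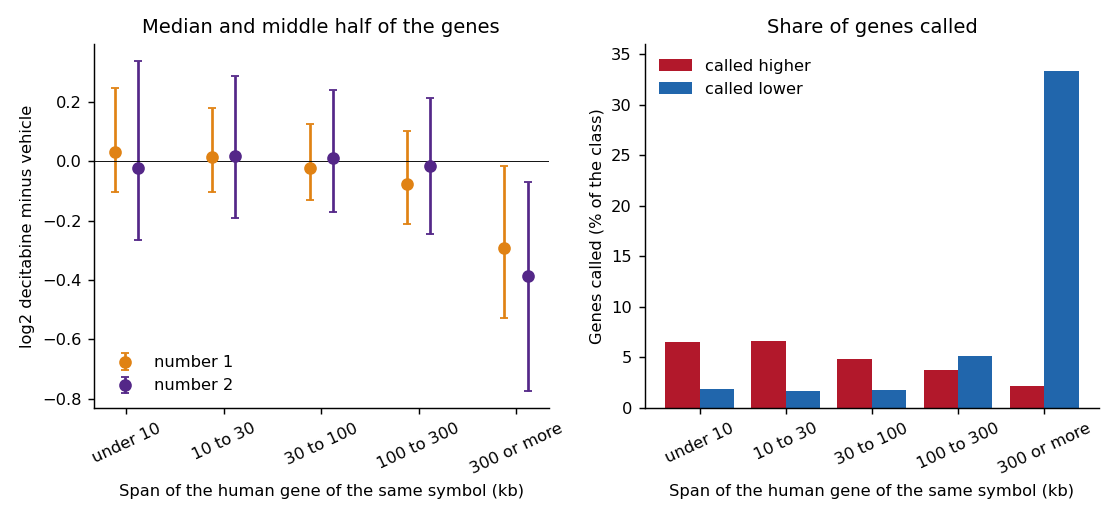
Left, the median log2 difference between decitabine and vehicle (points) and the middle 50% of genes (bars) in numbers 1 and 2, by the span in kb of the human gene of the same symbol. Right, the share of each class called higher or lower, as a percentage; 33.3% of the genes of 300 kb or more were called lower, against 1.68% to 5.14% in the shorter classes.

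The RNA of the drug's targets did not pass the test. Dnmt1 held 49752 and 48292 normalized counts in vehicle 1 and 2 and 44789 and 46584 in decitabine 1 and 2 (fitted log2 difference −0.10 ± 0.11, limma adjusted p = 0.641). Dnmt3a, a de novo methyltransferase, held 20199 and 19745 in vehicle and 19940 and 19880 in decitabine, and Dnmt3b, the other one, 577 and 731 in vehicle and 622 and 723 in decitabine. Uhrf1, which brings DNMT1 to replicating DNA, held 20724 and 20094 in vehicle and 16806 and 17302 in decitabine (−0.26 ± 0.10, limma adjusted p = 0.147), so its arms did not overlap and the test was missed. Among the 18 tested genes of the DNA methylation machinery list 0 were called by limma, edgeR or DESeq2 with the block. At an unadjusted limma p under 0.05 were 3976 of all 16680 tested genes and 3 of these 18, 1 higher and 2 lower. Beside Dnmt1 the most abundant of them was Mbd3, a NuRD subunit, with 20998 and 22616 in vehicle and 18986 and 17912 in decitabine (limma adjusted p = 0.192). RNA does not measure depletion of the DNMT1 protein.

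Genes of deoxynucleoside handling gave 1 call higher and 2 lower among 19 tested, with a median of −0.25. Cda, the cytidine deaminase that inactivates decitabine, rose from 42.1 and 130 normalized counts in vehicle 1 and 2 to 98.3 and 300.4 in decitabine 1 and 2 (1.20 ± 0.25, limma adjusted p = 0.0168). Its difference was nearly the same in both numbers although vehicle 2 lay above decitabine 1. Tk1, the S-phase thymidine kinase, fell from 6091 and 10185 to 4863 and 5802, and Dut, which hydrolyses dUTP, fell from 21370 and 26048 to 17124 and 16281. The fall was larger in number 2 for each.

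Several neuroendocrine transcription factors fell. Of 26 tested genes of that list, which also holds Rest, 5 were called lower and 1 higher, with a median of −0.18. Insm1, a zinc finger factor of neuroendocrine cells, held 56733 and 31831 normalized counts in vehicle 1 and 2 and 39520 and 24346 in decitabine 1 and 2 (−0.45 ± 0.11, limma adjusted p = 0.0311). Decitabine 1 lay above vehicle 2, and the fall is seen within each number. Neurod4, a proneural factor, held 557 and 640 in vehicle and 344 and 424 in decitabine, with no overlap. Neurod1, which defines an SCLC subtype, stood at 215 and 260 in vehicle and 235 and 325 in decitabine and missed the test (limma adjusted p = 0.525).

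Rest, the repressor of neuronal genes, rose from 21.6 and 33.2 normalized counts in vehicle 1 and 2 to 108 and 177 in decitabine 1 and 2 (2.32 ± 0.31, limma adjusted p = 0.00206). Neuroendocrine and neuronal effectors were mixed, with 7 called lower and 3 higher of 34 tested and a median of −0.037. Calca, the calcitonin and CGRP precursor, held 13846 and 11692 in vehicle and 11240 and 4036 in decitabine, a log2 difference of −0.30 in number 1 and −1.53 in number 2. Scg2, a granin, rose from 4509 and 853 to 6738 and 2402, and Nefm, a neurofilament subunit, from 769 and 2915 to 1056 and 4856. The arms of Scg2 and Nefm overlapped, since the numbers differed more than the treatments did. In bulk RNA fewer cells of a type and less RNA per cell cannot be told apart.

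Genes of the non-neuroendocrine state rose in part. Of 23 tested genes of that list, which also holds Notch pathway genes and Rest, 9 were called higher and 1 lower. The list's median was 0.36. Vim, the mesenchymal intermediate filament, was chosen after its values were seen and rose from 798 and 2381 normalized counts in vehicle 1 and 2 to 1738 and 5138 in decitabine 1 and 2 (1.12 ± 0.11, limma adjusted p = 0.000663). Its change was nearly the same in the 2 numbers, at 1.12 and 1.11. Cyr61, a matrix protein and YAP target, rose from 10.8 and 21.5 to 65.9 and 91.2, and Anxa1, a phospholipid-binding protein, from 4.32 and 6.83 to 54.1 and 33.6. Of the tuft cell list 1 of 6 tested genes, Sox9, was called higher, from 2679 and 1333 to 3877 and 2484, and Sox9 is also a progenitor factor outside tuft cells.

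**Figure D4:**
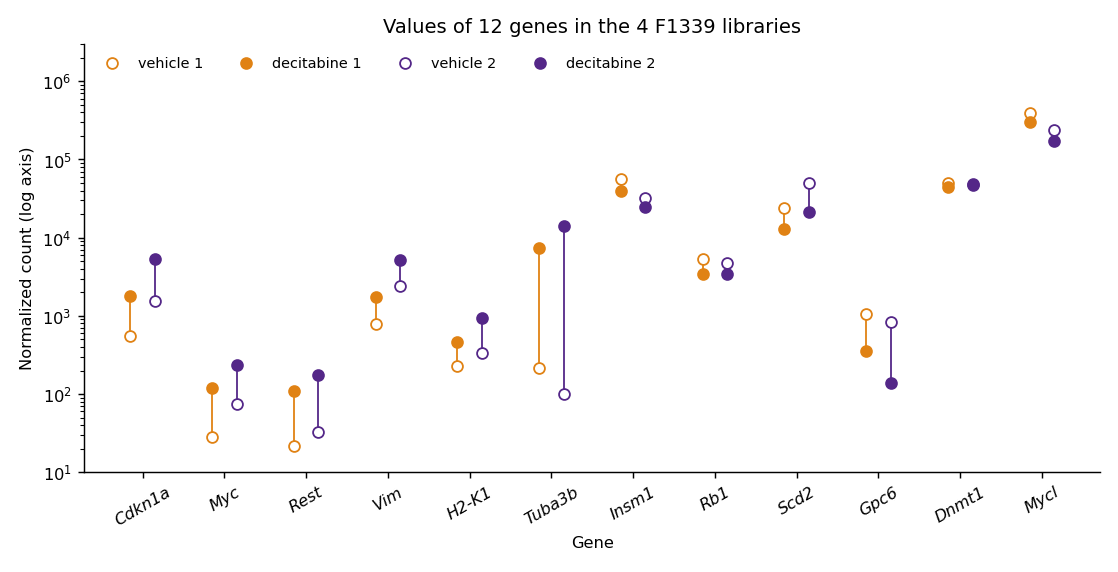
Normalized counts (log axis) of 12 genes in the 4 F1339 libraries, with open circles for vehicle, filled circles for decitabine, and a line joining the libraries of a number. The first 6 genes rise and the next 4 fall in both numbers, and the lines of Cdkn1a and Vim are of like length from different vehicle levels, while Dnmt1 and Mycl did not pass the test.

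Among cell cycle genes, Cdkn1a rose and Rb1 fell. Cdkn1a, which encodes the CDK inhibitor p21, held 549 and 1531 normalized counts in vehicle 1 and 2 and 1781 and 5364 in decitabine 1 and 2 (1.75 ± 0.11, limma adjusted p = 3.6e-05). Its rise was 1.70 in number 1 and 1.81 in number 2, and the arms did not overlap. Cdkn1b, which encodes p27, stood at 10681 and 9643 in vehicle and 11196 and 9800 in decitabine (limma adjusted p = 0.823). Rb1, the retinoblastoma tumour suppressor, fell from 5366 and 4756 to 3432 and 3381 (−0.57 ± 0.10, limma adjusted p = 0.00849), and Trp53 stood at 1141 and 1093 in vehicle and 1125 and 1025 in decitabine (limma adjusted p = 0.83). The labels give no genotype, and reads on Rb1 or Trp53 do not show whether the product works.

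Of 23 tested genes of the cell cycle exit list 5 were called higher and 2 lower, with a median of 0.11. Klf4, a differentiation factor, rose from 50.8 and 46.8 normalized counts in vehicle 1 and 2 to 175 and 326 in decitabine 1 and 2, and Cebpd from 161 and 210 to 446 and 370. Of 34 tested proliferation genes 0 were called by limma, edgeR or DESeq2 with the block. At an unadjusted limma p under 0.05, 12 of them were lower and 0 higher, against 3976 of all 16680 tested genes in either direction. Lower in both numbers were 27 of the 34, against 5841 of all tested genes, and the list's median was −0.19. Cdc20, a mitotic activator, held 79410.2 and 88827 in vehicle and 79346 and 105414 in decitabine, and Top2a, a topoisomerase, 76716 and 86297 in vehicle and 59707 and 79759 in decitabine. Mki67, the proliferation antigen, held 33439 and 42623 in vehicle and 30917 and 57878 in decitabine, lower in number 1 and higher in number 2 (limma adjusted p = 0.515). Among p53 targets 8 of 29 tested were called higher and 1 lower, with a median of 0.15. Beside Cdkn1a these included Plk2, which rose from 361 and 601 to 986 and 1511, and Gdf15, a stress-induced cytokine, which rose from 18.4 and 13.7 to 72.7 and 193. Apoptosis regulators gave 2 calls higher and 0 lower among 25 tested (8.0% against 4.66% of all genes), with a median of 0.041. They were Pmaip1, which encodes NOXA, from 177 and 190 to 302 and 386, and Gsdmd, the pore-forming gasdermin, from 211 and 337 to 499 and 551.

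Of the MYC family, Myc rose and Mycl missed the test. Mycl, the paralog often amplified in SCLC, held 393007 and 237225 normalized counts in vehicle 1 and 2 and 297185 and 174008 in decitabine 1 and 2, lower in both numbers without passing the test (−0.43 ± 0.16, limma adjusted p = 0.145). Myc held 28.1 and 74.1 in vehicle and 120 and 238 in decitabine (1.86 ± 0.28, limma adjusted p = 0.00357). The arms of Myc did not overlap. Myc was the 1 gene called among 30 tested genes of MYC and ribosome biogenesis, 3.33% against 4.66% of all genes, and that list's median was −0.066.

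Antigen presentation genes were higher in most members. Of 19 tested genes 8 were called higher (42.1% against 4.66% of all genes) and 0 lower, with a median of 0.80. Higher in both numbers were 16 of the 19, against 5595 of all 16680 tested genes. The rise was larger in number 2, where the median was 1.16 against 0.55 in number 1. H2-K1, a class I heavy chain, rose from 228 and 339 normalized counts in vehicle 1 and 2 to 464 and 952 in decitabine 1 and 2 (1.26 ± 0.18, limma adjusted p = 0.00273). Psmb8, an immunoproteasome subunit, rose from 52.9 and 3.90 to 119 and 28.8, and H2-Q4 from 88.6 and 70.2 to 147 and 199. H2-D1 was chosen after its values were seen and rose from 3030 and 2982 to 5350 and 7543 (1.08 ± 0.13). The H2 class I genes are alike in sequence, and their reads may be split among them.

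Interferon response and nucleic acid sensing genes gave 5 calls higher and 0 lower among 29 tested (17.2% higher against 4.66% of all genes), with a median of 0.53. At an unadjusted limma p under 0.05, 14 of the 29 were higher, against 3976 of all 16680 tested genes in either direction. With the block edgeR also called 5, and DESeq2 called 0. The called genes were of low abundance. Oasl1, an interferon-induced regulator, rose from 24.8 and 14.6 normalized counts in vehicle 1 and 2 to 70.8 and 56.6 in decitabine 1 and 2. Cxcl10, a chemokine that draws T cells, rose from 10.8 and 68.3 to 30.5 and 156, and Gbp3, a guanylate-binding protein, from 2.16 and 21.5 to 27.5 and 77.7. The arms of Cxcl10 overlapped across the numbers and those of Oasl1 and Gbp3 did not. Among 6 tested genes derived from retroviral envelopes or related elements 1 was called, Peg10, with a list median of 0.036. Peg10, an imprinted gene derived from a retrotransposon's gag and pol, rose from 937 and 482 to 1398 and 1296.

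Sterol and fatty acid synthesis genes fell. All 25 tested members were lower in both numbers, against 5841 of all 16680 tested genes. Of the 25, 14 were called lower (56.0% against 3.29% of all genes) and 0 higher, with a median of −0.52. Srebf1, the transcription factor of lipid synthesis, fell from 7878 and 11710 normalized counts in vehicle 1 and 2 to 4583 and 4754 in decitabine 1 and 2 (−1.04 ± 0.12, limma adjusted p = 0.00143). Scd2, a stearoyl-CoA desaturase, fell from 24145 and 50349 to 12814 and 21505 (−1.07 ± 0.11, limma adjusted p = 0.00087). Scd1, its relative, held 132 and 3571 in vehicle and 58.0 and 929 in decitabine, so it fell within each number while the numbers stood far apart. The median of the list was −0.31 in number 1 and −0.68 in number 2, larger in number 2 for 22 of 25. After rescaling to the same upper quartile 5 of the 14 were called, and with edgeR and DESeq2 15 were.

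Immediate early genes, which answer fast to serum and handling, in sum, and Pgk1 of the hypoxia list stood at higher levels in vehicle 2 than in vehicle 1, and the medians of these lists differed between the numbers. Of 22 tested immediate early genes 7 were called higher and 0 lower, with a median of 0.63 in number 1 and 0.0055 in number 2. The summed level of the list was 54044 normalized counts in vehicle 1, 147893 in vehicle 2, 65705 in decitabine 1 and 72018 in decitabine 2. Egr1, an immediate early transcription factor chosen after its values were seen, held 10850 and 65672 in vehicle and 13213 and 14610 in decitabine. Ier3 rose from 119 and 245 to 507 and 546, and Nr4a3, an orphan nuclear receptor, from 25.9 and 32.2 to 68.8 and 137. Of 29 tested hypoxia and glycolysis genes 2 were called lower (6.90% against 3.29% of all genes) and 0 higher, with a median of 0.0096 in number 1 and −0.49 in number 2. They were Pgk1, a glycolytic kinase, from 15085 and 30249 to 13308 and 14757, and Mxi1, a MYC antagonist, from 8853 and 5949 to 6088 and 4480. The part of the vehicle 2 library in the size of the response in number 2 was not tested.

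The genes whose differences diverged most between the numbers were taken by rule as the 6 highest and 6 lowest. Those higher in number 2 were Xist, Mov10l1, Tuba3a, Rps4l, Tex19.1 and Synpo2. Synpo2, an actin-binding protein, held 46.4 and 8.78 normalized counts in vehicle 1 and 2 and 52.1 and 92.1 in decitabine 1 and 2. Those lower in number 2 were Mnx1, Egr3, Egr2, Clec3b, Klhl4 and Fosb, and none of these 6 was called. Klhl4 held 1.08 and 867 in vehicle and 17.7 and 1197 in decitabine, and Mnx1, a homeobox factor, 1.08 and 73.2 in vehicle and 17.7 and 64.3 in decitabine. The vehicle libraries of these 2 genes differed far more than the treatments.

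In the integrated stress and unfolded protein response list 4 of 22 tested genes were called higher and 2 lower, with a median of 0.042. Ddit3, the stress factor CHOP, rose from 874 and 718 normalized counts in vehicle 1 and 2 to 1386 and 1803 in decitabine 1 and 2, Sesn2 from 1816 and 2043 to 2776 and 3102, and Atf3 from 540 and 899 to 862 and 1297. Of 22 tested imprinted genes 5 were called higher and 1 lower, with a median of 0.22. Dlk1, a Notch-related ligand, rose from 81.0 and 24.4 to 215 and 51.8, and Kcnq1ot1, a noncoding RNA antisense to Kcnq1 that cannot be told apart from its partner without strand, from 771 and 446 to 1013 and 752. Among 28 tested corepressor and Polycomb genes limma, edgeR and DESeq2 called 0 with the block, with 2 lower and 0 higher at an unadjusted limma p under 0.05. Among 13 mitochondrially encoded genes limma called 0, with 2 at an unadjusted p under 0.05, and edgeR and DESeq2 called 1 each. The most abundant members were Chd4, a NuRD remodeller, with 77219 and 73959 in vehicle and 72192 and 82305 in decitabine, Trim28, a corepressor of retroelements, with 41164 and 39048 in vehicle and 37013 and 33863 in decitabine, mt-Co1, with 528126 and 296358 in vehicle and 452482 and 322711 in decitabine, and mt-Cytb, with 247591 and 144802 in vehicle and 186894 and 131737 in decitabine.

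Markers of other cell types rose in part. Of 12 tested endothelial and lung epithelial markers 8 were called higher and 0 lower, with a median of 1.16. Among these, Cdh5, Sftpb and Sftpa1 were under 10 in both vehicle libraries. They passed the filter only through decitabine and could only be higher, which raises that count and median. Cdh5, an endothelial cadherin, held 7.56 and 0.976 normalized counts in vehicle 1 and 2 and 21.6 and 56.6 in decitabine 1 and 2, Sftpb, a surfactant protein, 2.16 and 6.83 in vehicle and 29.5 and 49.0 in decitabine, and Sftpa1, another, 0 and 0 in vehicle and 13.8 and 39.4 in decitabine. Sftpc, the surfactant protein of alveolar type II cells, was chosen after its values were seen and stood at 2871 and 3526 in vehicle and 3019 and 3577 in decitabine. Of 8 tested fibroblast markers 4 were called higher and 0 lower, with a median of 0.87. Col1a1, a fibrillar collagen, rose from 34.6 and 75.1 to 80.6 and 281, S100a4 from 35.6 and 134 to 81.6 and 272, and Thy1 from 162 and 34.1 to 294 and 224. The summed level of the lung and endothelial markers was 6013 and 5874 in vehicle and 7237 and 7564 in decitabine, and that of the fibroblast markers 7695 and 9591 in vehicle and 8792 and 11087 in decitabine. Of 15 immune markers 1 was tested, Cd68, with 47.5 and 99.5 in vehicle and 72.7 and 102 in decitabine (limma adjusted p = 0.567). The part of other cell types in the rise of non-neuroendocrine, antigen presentation and interferon genes was not tested.

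**Figure D5:**
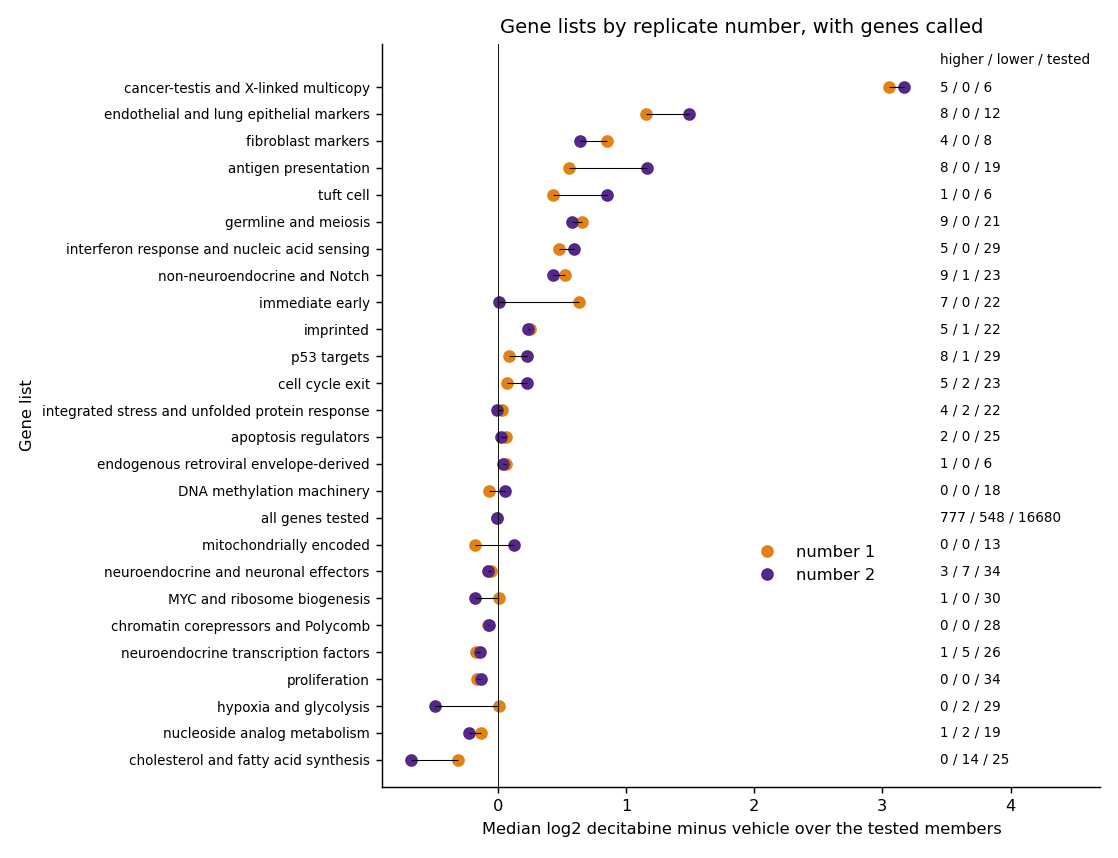
Median log2 difference between decitabine and vehicle over the tested members of each list with at least 5 of them, in number 1 and number 2, with the counts of genes called higher, called lower and tested at the right. Cholesterol and fatty acid synthesis lies lowest in both numbers, the cancer-testis list lies highest, and the immediate early and hypoxia lists lie apart between the numbers.

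In H146, fitted the same way on its own table, 2936 genes were called higher (14.1%) and 2256 lower (10.9%) of 20783 tested. The tables were normalized separately, so calls were compared and levels were not. Of the 11825 genes with the same symbol in both lines, 584 were higher in F1339, and 201 of them were also higher in H146. That is 34.4% of the F1339 genes and 12.3% of the H146 genes called higher, where 13.8% of all matched genes were higher in H146. Of the 475 lower in F1339, 104 were lower in H146, which is 21.9% of the F1339 genes and 6.66% of the H146 genes called lower, where 13.2% of all matched genes were lower in H146. A further 53 genes were higher in F1339 and lower in H146 (9.08% of those higher in F1339, against 13.2% of matched genes), and 53 were lower in F1339 and higher in H146 (11.2% of those lower in F1339, against 13.8%).

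Genes called in the same direction in both lines included Dazl, Mov10l1, Piwil2, Cdkn1a, Gdf15, Plk2 and Srebf1. CDKN1A rose by 0.63 in H146, from 6385 and 5662 normalized counts in vehicle to 9476 and 9108 in decitabine, and Cdkn1a by 1.75 in F1339. NEUROD1 rose in H146 from 31.1 and 28.7 to 292 and 203, where Neurod1 of F1339 missed the test. The lines differ in species, time and table, and the differences between them were not tested.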

How the data were processed

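RNA of 4 F1339 and 4 H146 libraries was sequenced by a vendor, per the labels. Trimmomatic 0.36, STAR 2.5.2b, Subread 1.5.2 with featureCounts, and DESeq2 are the tools in the submitters' processing notes. The notes list GRCh38 for all samples, mouse included, and no source used here gives the mouse build, the annotation or the strandedness. The deposited signal is each gene's count over the library's size factor, as the authors computed it. In F1339 100% of values were whole multiples of 1 read within 0.001 read, a limit that was widened in proportion at high counts. The lowest total of a listed gene was 41 reads. The 23 symbols turned into dates and 28 blank ones stayed in the fit and are not named. The log2 fold changes and p-values in the authors' deposited table served only for their count of calls.

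Each line was fitted alone with limma 3.58.1 (R 4.3.3) on log2(normalized count + 1), with replicate number as block, a treatment term and eBayes with a variance trend. A gene entered the fit with a value of 10 or more in 2 or more libraries, and adjustment was by Benjamini-Hochberg over all such genes. The fit had 1 residual and 9.755 prior degrees of freedom. Deviations of same-numbered libraries from their arm means correlated at 0.69 over genes in F1339 and −0.034 in H146. Alternatives changed the pseudocount, filter, scaling, block or trend, or ran edgeR 4.0.16 and DESeq2 1.42.0 on F1339's recovered reads. The procedure was tested on simulated data.

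The members and the 26 lists were chosen with earlier results of these data known. The lists overlap, so genes such as Rest, Cdkn1a, Klf4 and Peg10 count in each list that holds them. Named genes are a fixed set of 14, the 12 highest and 12 lowest called genes with a mean of at least 50, the called members of each list up to 3 (the 2 most abundant where none was called), the 6 highest and 6 lowest by difference between the numbers, and some of those called in both lines. Some of these genes are not reported here. Mouse sequences were not used here. Intervals of ratios are 95% counting intervals, and a fold against an arm at 0 is set against 3 reads over the arm.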

Additional observations from a re-analysis of the deposited data

Results flagged for a closer look

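Myc rose in both numbers of F1339 and fell in both numbers of H146. Its fitted log2 difference was 1.86 in F1339, from 28.1 and 74.1 normalized counts in vehicle to 120 and 238 in decitabine, and −0.79 in H146, where MYC went from 11462 and 9566 to 6119 and 5958. Uhrf1 was lower in both numbers of F1339, at −0.26 without passing the test, and higher in both numbers of H146, at 0.38, where it was called. The lines differ in species and in time, and neither difference between them was tested.

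Of the 12 F1339 genes taken by rule for the gap between the numbers, 4 differed by 2-fold or more in opposite directions in the numbers. Egr3, an immediate early transcription factor, had a log2 difference of 1.83 in number 1 and −1.27 in number 2, with 17.3 and 127 normalized counts in vehicle 1 and 2 and 63.9 and 51.8 in decitabine 1 and 2. Its relative Egr2 had 1.82 and −1.24, with 72.4 and 610 in vehicle and 258 and 257 in decitabine. Clec3b, a secreted lectin, had 1.42 and −1.37, with 14.0 and 155 in vehicle and 39.3 and 59.5 in decitabine. Fosb, of the AP-1 family, had 1.06 and −1.57, with 474 and 2176 in vehicle and 993 and 730 in decitabine. In all 4 genes vehicle 2 was the highest and vehicle 1 the lowest of the 4 libraries. With 1 library of each arm in a number, these differences were not tested.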

How the results depend on the processing

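The count of 1325 called genes stayed within 1.5 times under both other pseudocounts (1212 and 1555) and no filter (1352). The same held for the stricter filter (1266), the same total (1901) and edgeR (1453). Without asking for the same sign the count was also 1325, which the fit fixed in advance. It was 465 with the same upper quartile, 871 with DESeq2 and 0 without a variance trend. With no replicate block it was 0, as it was with each library also left out in turn, with 228 to 996 genes at an unadjusted p under 0.05. The H146 count stayed within 1.5 times without the block (5192 with it, 5752 without, an alternative added after seeing the data). In H146 the count without the block did not ask for the same sign in both numbers, while the count with it did. The SD of number 2 over that of number 1, 1.32 as reported, ranged from 1.29 to 1.40. The cause of these shifts was not tested.

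Of the 75 called genes named, 43 kept their call in the 8 blocked alternatives with a trend that tested them. The upper quartile ended 25 calls, DESeq2 22, the same total 1 and the lower pseudocount 1. With no block and a library left out, 3 reversed: Nefm at −0.36 without vehicle 1 and −0.50 without decitabine 2, Scd1 at 0.82 without vehicle 2 and 0.43 without decitabine 1, and Scg2 at −0.16 without vehicle 2. These mix the gap between the numbers with the treatment. A vehicle and a decitabine library per number limit what can be tested, and under about 10 counts the counting error is large.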
